A study of Homo sapiens with 12 samples.

Results

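The 9 genes described here are PARP1, PARP2, PARP3, PARP4, PARP8, PARP9, PARP10, PARP12 and PARP14, all members of the PARP family and taken by gene symbol from the 16383 genes of the deposited expression table. PARP1, PARP2 and PARP3 are set against PARP9, PARP10, PARP12 and PARP14 throughout, as a DNA damage branch of 3 genes and an interferon branch of 4 genes. PARP4 and PARP8 belong to neither branch. All 9 had a mean of at least 10 normalized counts and were among the 11242 genes tested.

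Poly(A) RNA was sequenced from wild-type IMR90 cells, a single established line of human lung fibroblasts, in 4 groups of 3 libraries. Proliferating cells had no treatment, and the other groups were exposed to 20 Gy of ionizing radiation during 10 min to make them senescent and were harvested on day 11. From day 4, and again on days 6, 8 and 10, irradiated cells received 2 µM palbociclib, which blocks the cell cycle kinases CDK4 and CDK6, or 2 µM ruxolitinib, which blocks the Janus kinases JAK1 and JAK2. The irradiated controls received DMSO, the solvent, for which the labels give no dose or days. The proliferating cells had neither radiation nor DMSO, so the effects of these cannot be told apart in that comparison. Nothing in the labels says that replicates were separate cultures, so p-values measure the spread between libraries, which may be technical.

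PARP enzymes split NAD and attach its ADP-ribose part to proteins, nucleic acids or themselves. PARP1, PARP2 and PARP3 are nuclear enzymes that are switched on by DNA breaks. PARP1 and PARP2 build ADP-ribose chains that draw in single-strand break repair proteins, and PARP3 adds single ADP-ribose units at double-strand breaks. PARP9, PARP10, PARP12 and PARP14 are known as interferon-stimulated genes in many cell types. Type I interferon acts through Janus kinases to activate transcription factors, STAT2 and IRF9 among them, that bind a DNA element called the interferon-stimulated response element.

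The promoter sequences below are shown because a motif in them set PARP9, PARP12 and PARP14 apart from the other PARP genes with a promoter window. Windows of 250 bases before to 50 after each start were taken from RefSeq (GRCh38.p14). Of the 9 genes, 7 had at least 1 window, with 10 windows in all, and PARP4 and PARP10 had none. The core of the interferon-stimulated response element was searched on both strands as GAAA, any 2 bases and GAAA again. It was found in 3 of 3 interferon-branch genes with a window (PARP9, PARP12 and PARP14), in 0 of 3 damage-branch genes and in 0 of 6 other PARP family genes with a window. Among these 6 was ZC3HAV1, which also rose after irradiation and fell with both inhibitors, as described below. Of all 35116 windows, 3.57% held this core. PARP9 had a match in 1 of its 2 windows. In the lines below the match is in capitals, each sequence is on the gene's own strand, and a match on the other strand reads as its reverse complement. PARP9 is shown from chr3:122564322-122564351 (minus strand), PARP12 from chr7:140062942-140062971 (minus strand) and PARP14 from chr3:122680800-122680829 (plus strand).
PARP9: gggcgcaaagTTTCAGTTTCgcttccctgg
PARP12: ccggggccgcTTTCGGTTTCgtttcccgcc
PARP14: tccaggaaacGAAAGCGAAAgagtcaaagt
The match lay at -41 to -32 from the second RefSeq start of PARP9, at -10 to -1 from the start of PARP12 and at -29 to -20 from the start of PARP14.

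The 200 bases before the start of PARP12 (chr7:140062952-140063151, minus strand) and of PARP14 (chr3:122680639-122680838, plus strand) are given as wider context for the genes with 1 window each.
PARP12: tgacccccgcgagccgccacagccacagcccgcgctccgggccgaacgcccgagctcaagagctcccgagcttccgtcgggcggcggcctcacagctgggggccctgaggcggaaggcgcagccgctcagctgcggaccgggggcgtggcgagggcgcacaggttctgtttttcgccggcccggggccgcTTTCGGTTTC
PARP14: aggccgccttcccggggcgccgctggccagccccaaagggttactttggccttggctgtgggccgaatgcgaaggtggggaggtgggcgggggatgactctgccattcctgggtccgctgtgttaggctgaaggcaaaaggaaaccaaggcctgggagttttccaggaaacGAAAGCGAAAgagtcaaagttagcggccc
A gamma-activated site, an element of the interferon gamma response, was searched as TTCNNNGAA on both strands and was in 7.66% of all windows. Among the 9 genes it was found in PARP14, at -40 to -32, overlapping no base of the response element, and in PARP2, at -154 to -146. E2F sites, bound by the factors that the CDK4 and CDK6 pathway controls, were searched on both strands as TTTCCCGC, TTTGGCGC, TTTGCCGC and TTTCGCGC, and 3.31% of windows held 1 or more. PARP12 held the only match among the 7 genes, at 2 to 9 after its start. A match is a run of letters, not a measured binding site, and the absence of one says only that these letters are not in the window.

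**Figure D1:**
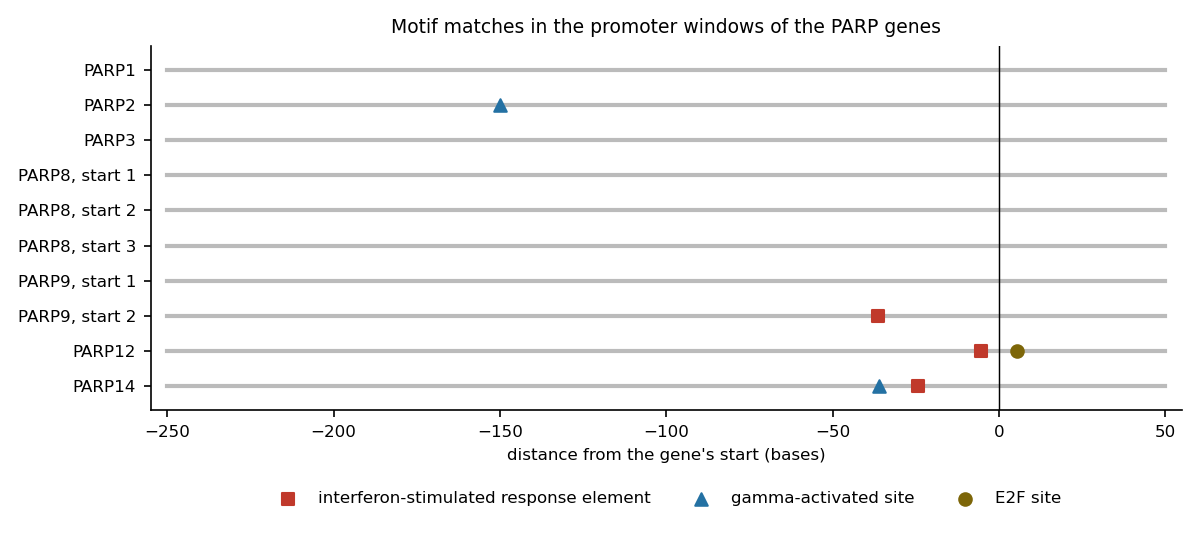
Positions of motif matches in the 10 promoter windows of the 7 PARP genes that had one. The x axis is the distance from the gene's start in bases, each grey line is 1 window, and the symbols mark the response element, the gamma-activated site and the E2F site. The response element matches lie within 41 bases before a start of PARP9, PARP12 and PARP14.

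The recovered reads over the listed genes numbered 14106799 to 21762412 in a library. Libraries A120 (palbociclib) and A126 (proliferating), named by the number in their column header, stood apart from the others of their group, with a chi-square per degree of freedom of 11.47 to 23.93 against their replicates, where the other pairs gave 1.944 to 6.176. As a check of the labels, 5 genes were read. CDKN1A, a cell cycle inhibitor, averaged 3389 normalized counts in proliferating and 29150 in DMSO cells, and LMNB1, a nuclear lamina gene, 3911 and 153. MKI67 averaged 13062 and 1011, and GDF15 122 and 4447. CDKN2A, another cell cycle inhibitor, averaged 167 and 174 and was not called. With palbociclib all 5 were called lower than with DMSO, where 22.3% of all tested genes were. CDKN1A was then at 14779 and GDF15 at 926. All 10 fibroblast markers checked were detected in every group, and summed to 822420 to 854897 normalized counts in proliferating libraries, 408919 to 419590 with DMSO, 651681 to 683887 with palbociclib and 515852 to 520021 with ruxolitinib. The 5 epithelial markers summed to 99.0 to 143 normalized counts in proliferating libraries, 266 to 309 with DMSO, 376 to 501 with palbociclib and 297 to 348 with ruxolitinib, mostly from KRT19, with KRT5 and SFTPC at or near 0. The endothelial and blood lists summed to at most 50.4 in any library. Their part in the results was not tested. Scaling matters for small differences: giving all libraries the same total moved the median log2 fold change of all genes by 0.23 between DMSO and proliferating cells and by -0.23 between palbociclib and DMSO. After irradiation 3714 genes were called higher and 4420 lower, against 5289 and 2970 at the same total and 5686 and 2650 with equal upper quartiles. With palbociclib 2927 were called higher and 2505 lower than with DMSO, against 940 and 5176 at the same total and 1952 and 3253 with equal upper quartiles.

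After irradiation PARP1 and PARP2 fell and PARP3 rose. All 4 interferon-branch genes rose, by 2.80-fold to 4.38-fold. Of the 9 genes, 5 were called higher, where 33.0% of all tested genes were, and 2 were called lower, where 39.3% were. All 9 genes had groups without overlap, as had 75.1% of all tested genes. The median log2 fold change was -1.15 over the damage branch (range -1.89 to 0.93) and 1.77 over the interferon branch (1.48 to 2.13), beside -0.05 over all tested genes. In bulk RNA, fewer cells of a kind and less RNA in each cell cannot be told apart.

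PARP1 (Entrez gene 142, chr1:226360691-226408093), the enzyme that makes most of the ADP-ribose chains after DNA damage, had 4512, 4733 and 4834 normalized counts in proliferating cells, 1249, 1307 and 1248 with DMSO, 1150, 1144 and 1174 with palbociclib and 1318, 1243 and 1400 with ruxolitinib. Here and below the values of a group follow the library number. All proliferating libraries were more than 3-fold above every irradiated one, and the irradiated groups lay close to each other. Between proliferating (4693 ± 165, SD, n = 3) and DMSO cells (1268 ± 33.8) PARP1 fell 3.70-fold, a log2 fold change of -1.89 (SE 0.05, limma adjusted p 1.10e-13). Only 319 of the 11242 tested genes had a lower log2 fold change.

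PARP2 (Entrez gene 10038, chr14:20343635-20357904), the partner of PARP1 in single-strand break repair, had 729.4, 706.5 and 629.4 normalized counts in proliferating cells, 333.6, 293.6 and 301.8 with DMSO, 244.6, 243.0 and 252.3 with palbociclib and 307.9, 317.0 and 287.8 with ruxolitinib. Proliferating libraries were the highest, and the palbociclib libraries were below all others. PARP2 fell 2.22-fold after irradiation (log2 fold change -1.15, SE 0.08, limma adjusted p 3.43e-09).

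PARP3 (Entrez gene 10039, chr3:51942363-51948867) went the other way. It had 198.2, 197.4 and 175.2 normalized counts in proliferating cells, 367.2, 330.3 and 393.1 with DMSO, 348.6, 349.2 and 347.3 with palbociclib and 339.5, 328.7 and 314.9 with ruxolitinib. All 9 irradiated libraries lay above the 3 proliferating ones. The rise was 1.90-fold (log2 fold change 0.93, SE 0.08, limma adjusted p 7.18e-08), so the damage branch did not move as a block.

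PARP9 (Entrez gene 83666, chr3:122527924-122564784), which forms a complex with the ubiquitin ligase DTX3L, had 317.5, 272.8 and 338.0 normalized counts in proliferating cells and 1357, 1367 and 1337 with DMSO. It was at 218.0, 292.3 and 248.7 with palbociclib and at 116.5, 98.1 and 100.2 with ruxolitinib. The DMSO libraries stood far above all others and the ruxolitinib libraries were the lowest, with no overlap between these 2 groups and the rest. PARP9 rose 4.38-fold after irradiation (log2 fold change 2.13, SE 0.11, limma adjusted p 8.80e-11). The annotated PARP9 locus overlaps DTX3L and LOC105374071, both not analysed here, and whether the authors' counting used strand is not given in the sources used here, so reads could be shared.

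PARP10 (Entrez gene 84875), a mono-ADP-ribosyltransferase, had 111.0, 112.0 and 98.1 normalized counts in proliferating cells, 412.8, 383.6 and 386.2 with DMSO, 86.3, 146.7 and 140.3 with palbociclib and 84.9, 83.7 and 95.6 with ruxolitinib. The DMSO libraries were again alone at the top, while the other 3 groups lay near 100, with the palbociclib libraries spread on both sides of the proliferating ones. The rise after irradiation was 3.66-fold (log2 fold change 1.87, SE 0.16, limma adjusted p 3.61e-08). The annotated locus overlaps GRINA, which averaged 2105 normalized counts in proliferating, 3856 in DMSO, 4335 in palbociclib and 3365 in ruxolitinib libraries. GRINA was called higher after irradiation (log2 fold change 0.87), higher with palbociclib than with DMSO (0.17) and lower with ruxolitinib (-0.20), so it shared the direction of PARP10 in the first and last of these. GRINA was also higher with palbociclib than with ruxolitinib (0.36, limma adjusted p 2.94e-05), as PARP10 was (0.46). Against proliferating cells GRINA was higher with palbociclib (1.04) and with ruxolitinib (0.68), where PARP10 was not called. Whether reads were shared was not tested.

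PARP12 (Entrez gene 64761, chr7:140023749-140062951), a zinc-finger member that restricts viral replication, had 208.6, 276 and 194.3 normalized counts in proliferating cells, 593.9, 623.9 and 664.9 with DMSO, 108.5, 182.8 and 178.5 with palbociclib and 82.6, 109.0 and 105.6 with ruxolitinib. The proliferating libraries were above both inhibitor groups and well below DMSO. PARP12 rose 2.80-fold after irradiation (log2 fold change 1.48, SE 0.18, limma adjusted p 2.08e-06), the smallest rise in its branch.

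PARP14 (Entrez gene 54625, chr3:122680839-122730840), a large macrodomain-containing mono-ADP-ribosyltransferase, had 635.0, 602.2 and 620.9 normalized counts in proliferating cells, 2159, 1902 and 1879 with DMSO, 365.2, 294.5 and 424.6 with palbociclib and 405.1, 380.0 and 396.1 with ruxolitinib. Both inhibitor groups lay below all proliferating libraries, and the 3 DMSO libraries lay above everything else. The rise after irradiation was 3.19-fold (log2 fold change 1.67, SE 0.10, limma adjusted p 6.57e-10). PARP9 and PARP14 are neighbours on chromosome 3, with 116054 bases between them.

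PARP4, a component of cytoplasmic vault particles, and PARP8, a less studied member, were not called after irradiation. PARP4 (Entrez gene 143, chr13:24420931-24512778) had 2940, 2189 and 3221 normalized counts in proliferating and 3231, 3369 and 3274 in DMSO libraries, the low value being that of A126. Its log2 fold change was 0.26 (SE 0.11, limma adjusted p 0.0501), and it was called by edgeR (adjusted p 0.0208) and DESeq2 (adjusted p 0.0132) on the recovered reads. The value was 0.49 at the same total (adjusted p 0.000736) and 0.55 with equal upper quartiles (0.000252), both called, and ran from 0.10 without A126 to 0.38 without A127. PARP8 (Entrez gene 79668, chr5:50665931-50846519) had 310.2, 282.8 and 298.1 in proliferating and 269.2, 253.3 and 239.4 in DMSO libraries, a log2 fold change of -0.23 (limma adjusted p 0.0639) that became 0.0029 at the same total and 0.06 with equal upper quartiles.

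**Figure D2:**
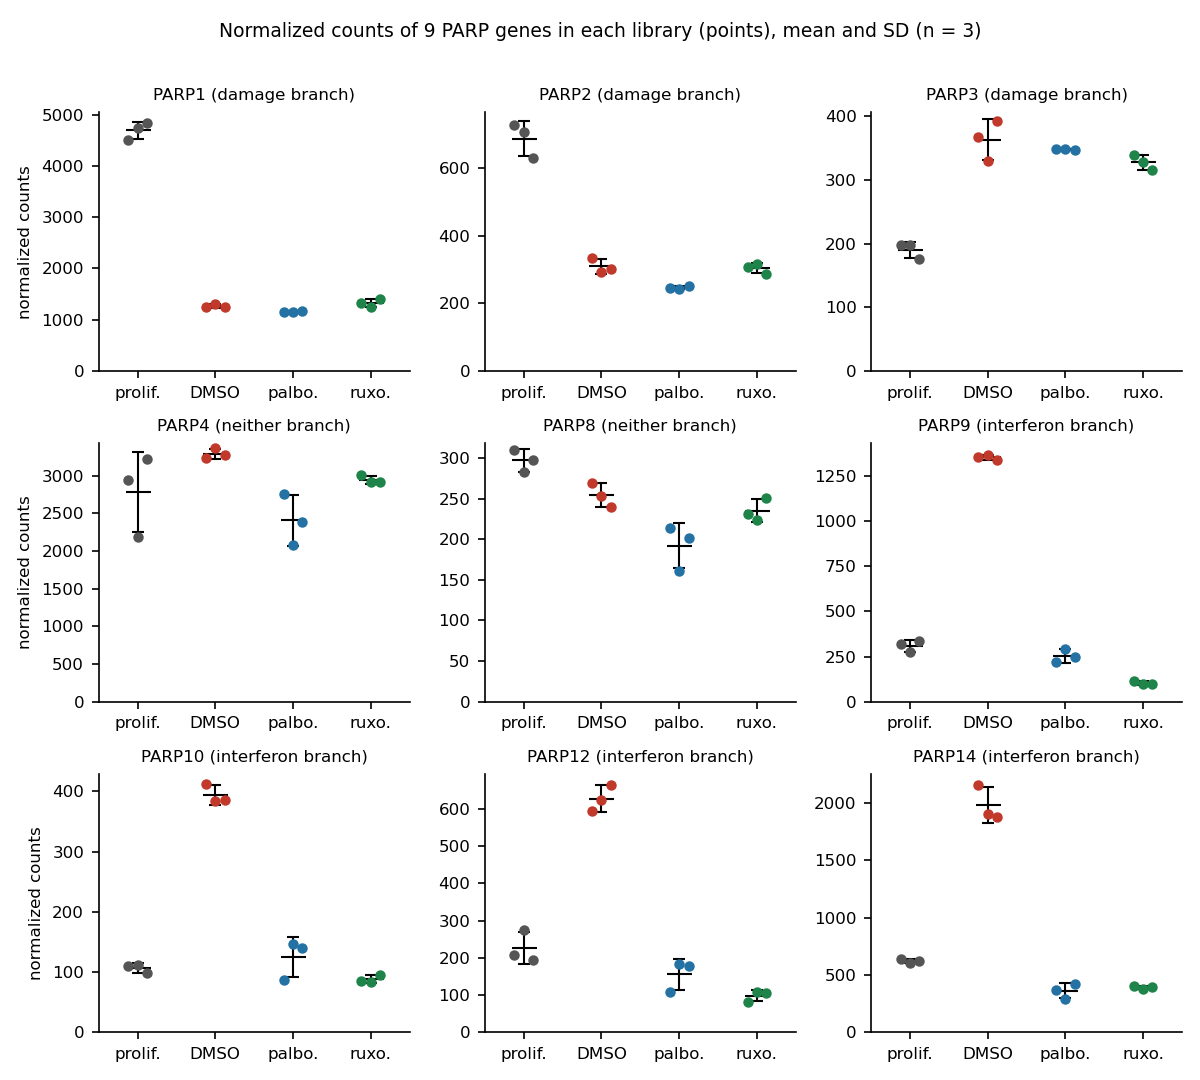
Normalized counts (y axes, linear and starting at 0, a separate scale for each gene) of the 9 PARP genes in proliferating cells and in irradiated cells with DMSO, palbociclib or ruxolitinib. Points are libraries, bars are the mean and SD of 3 libraries; the 3 DMSO libraries stand above all other libraries for PARP9, PARP10, PARP12 and PARP14, and the 3 proliferating libraries stand above all others for PARP1 and PARP2.

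Palbociclib lowered all 4 interferon-branch genes in irradiated cells by 3.23-fold to 5.52-fold, while the damage branch differed by at most 1.25-fold in the values as deposited. Compared with DMSO, 7 of the 9 genes were called lower, where 22.3% of all tested genes were, and 0 were called higher, where 26.0% were. No overlap between the groups was seen for 8 of 9 genes, against 54.8% of all tested genes. The median log2 fold change was -2.23 over the interferon branch and -0.13 over the damage branch, beside 0.02 over all tested genes. The DMSO libraries enter this comparison, the one with proliferating cells and the one with ruxolitinib, so the values are given side by side without relating them.

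PARP14 fell 5.52-fold with palbociclib, from 1980 ± 155 (SD, n = 3) to 361.4 ± 65.1 normalized counts (log2 fold change -2.46, SE 0.10, limma adjusted p 6.75e-11). PARP9 fell 5.37-fold, from 1354 ± 15.6 to 253.0 ± 37.3 (log2 fold change -2.43, SE 0.11, limma adjusted p 1.66e-10). Both were near the bottom of the list, with 91 and 96 of the 11242 tested genes further down. PARP12 fell 4.09-fold, from 627.6 ± 35.6 to 156.6 ± 41.8 (log2 fold change -2.03, limma adjusted p 2.98e-07). PARP10 fell 3.23-fold, from 394.2 ± 16.1 to 124.5 ± 33.2 (log2 fold change -1.69, limma adjusted p 5.89e-07). For PARP10 and PARP12 library A119 was the lowest of the palbociclib libraries, and without it the log2 fold changes were -1.45 and -1.79.

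In the damage branch PARP2 fell 1.25-fold, from 309.7 ± 21.1 to 246.6 ± 4.96 normalized counts (log2 fold change -0.33, limma adjusted p 0.00377). Over the alternative runs its log2 fold change ran from -0.55 to -0.27. PARP1 averaged 1156 ± 16.1 with palbociclib against 1268 ± 33.8 with DMSO and just missed the threshold (log2 fold change -0.13, 95% interval -0.25 to -0.02, limma adjusted p 0.0528), while edgeR (adjusted p 0.0251) and DESeq2 (adjusted p 0.0314) called it. PARP1 was also called at the same total (-0.36, limma adjusted p 4.14e-05) and with equal upper quartiles (-0.22, limma adjusted p 0.00394). PARP3, at 348.4 ± 0.961 and 363.6 ± 31.6, had a log2 fold change of -0.06 (95% interval -0.24 to 0.12, limma adjusted p 0.595) and was called lower at the same total (-0.28, adjusted p 0.0135). Outside the branches, PARP4 fell to 2762, 2086 and 2389 (log2 fold change -0.46, limma adjusted p 0.00388). PARP8 fell to 213.6, 160.9 and 201.6 (log2 fold change -0.41, limma adjusted p 0.00468). In both genes library A120 held the lowest value, and without it the log2 fold changes were -0.36 and -0.29.

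With ruxolitinib the 4 genes of the interferon branch fell further than nearly all other genes. Compared with DMSO, 4 of the 9 PARP genes were called lower, where 3.42% of all tested genes were, and these were PARP9, PARP10, PARP12 and PARP14. None of the 9 was called higher, where 1.10% of all tested genes were, and the other 5 were not called. The groups were free of overlap for 5 of 9, against 31.9% of all tested genes. The median log2 fold change was -2.49 over the interferon branch and -0.02 over the damage branch, beside 0.00 over all tested genes.

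PARP9 fell 12.8-fold, to 104.9 ± 10.1 normalized counts (SD, n = 3; log2 fold change -3.68, SE 0.11, limma adjusted p 6.65e-12). Of the 11242 tested genes, 15 fell further. PARP12 fell 6.32-fold, to 99.0 ± 14.4 (log2 fold change -2.66, SE 0.18, limma adjusted p 5.52e-08). PARP14 fell 5.01-fold, to 393.7 ± 12.7 (log2 fold change -2.33, SE 0.10, limma adjusted p 4.16e-10). PARP10 fell 4.44-fold, to 88.1 ± 6.57 (log2 fold change -2.15, SE 0.16, limma adjusted p 1.84e-07). These 3 had 24, 30 and 31 genes further down, so all 4 stood among the 32 largest decreases.

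For the other 5 genes the intervals were narrow. PARP1 had a log2 difference of 0.06 (95% interval -0.06 to 0.17), PARP2 of -0.02 (-0.20 to 0.15) and PARP3 of -0.15 (-0.33 to 0.03). PARP4 had one of -0.16 (-0.40 to 0.08) and PARP8 one of -0.11 (-0.33 to 0.11). The limma adjusted p-values of these 5 ranged from 0.442 to 0.936. PARP4 was called when only the ruxolitinib and DMSO libraries were fitted (adjusted p 0.00167), and its 2 groups did not overlap (2912 to 3006 against 3231 to 3369). The sign for PARP2 turned to 0.02 at the same upper quartile.

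**Figure D3:**
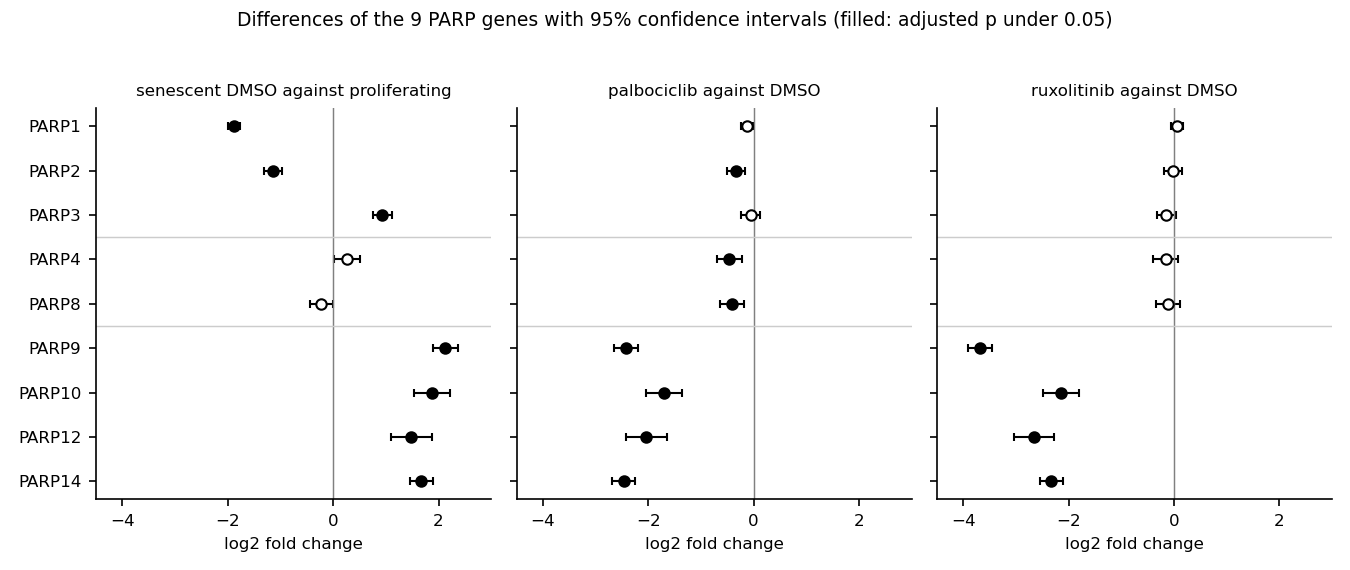
Log2 fold changes (x axis) of the 9 PARP genes in 3 comparisons, with 95% confidence intervals from the limma fit; filled points had an adjusted p under 0.05. PARP1 and PARP2 lie at -1.89 and -1.15 after irradiation, and the 4 interferon-branch genes lie right of 0 after irradiation and left of 0 with either inhibitor.

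The inhibitors were compared directly, at the same dose and days. Relative to ruxolitinib, palbociclib gave higher values for 3 of the 9 genes, where 22.8% of all tested genes were called higher, and lower values for 4, where 17.6% were. Libraries of the 2 groups were separate for 6 of 9, against 51.8% of all tested genes. PARP9 was 2.39-fold higher with palbociclib (log2 difference 1.26, SE 0.11, limma adjusted p 3.45e-07), and 50 of the 11242 tested genes differed more in that direction. PARP14, in contrast, was at 361.4 ± 65.1 normalized counts with palbociclib and 393.7 ± 12.7 with ruxolitinib, a log2 difference of -0.14 (95% interval -0.36 to 0.08, limma adjusted p 0.295) that was 0.001 without library A120 and was called at the same total (-0.34, adjusted p 0.0139).

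PARP12 (log2 difference 0.63, limma adjusted p 0.0117) and PARP10 (0.46, limma adjusted p 0.0322) were called higher with palbociclib, but their libraries overlapped. At the same total the adjusted p was 0.0674 for PARP12 and 0.204 for PARP10, and without library A122 it was 0.0646 and 0.0914. In the damage branch PARP1 (-0.19, limma adjusted p 0.0110) and PARP2 (-0.30, limma adjusted p 0.00761) were lower with palbociclib, and PARP1 was not called without library A124 (adjusted p 0.0684). PARP4 (-0.30, limma adjusted p 0.0475) and PARP8 (-0.30, limma adjusted p 0.0321) were also lower, calls that ended without library A120 (adjusted p 0.172 and 0.157). The PARP4 call also ended when A116, A117, A118, A121, A122, A123, A124 or A125 was left out. It ended too with no filter (adjusted p 0.163) and in limma without a trend (0.107). The PARP8 call also ended without A122 (adjusted p 0.0657) or A124, with no filter (0.0588) and with only the 2 groups compared (0.0661). PARP3 was at 347.3 to 349.2 with palbociclib and 314.9 to 339.5 with ruxolitinib, a log2 difference of 0.09 (95% interval -0.09 to 0.27) that turned to -0.11 at the same total and -0.04 with equal upper quartiles.

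The treated cells were also set against proliferating cells, for which the labels give no harvest day. With palbociclib 1 of the 9 genes was called higher, PARP3, where 35.2% of all tested genes were, and 6 were called lower, where 38.6% were. With ruxolitinib it was again PARP3 alone that was higher, where 32.6% of all tested genes were, and 6 were lower, where 39.5% were. Libraries were separate from the proliferating ones for 6 of 9 genes with palbociclib, against 70.9% of all tested genes, and for 8 of 9 with ruxolitinib, against 76.2%.

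PARP9 was 2.93-fold below proliferating cells with ruxolitinib (log2 difference -1.55, limma adjusted p 3.80e-09). With palbociclib it was 1.23-fold below (-0.29, limma adjusted p 0.0242), with overlapping libraries and a difference of -0.09 at the same upper quartile (adjusted p 0.479), and the call also ended without library A119 (0.121), A125 (0.0676), A127 (0.103) or A121 (0.0588). PARP14 was below with both, by -0.79 on the log2 scale with palbociclib (limma adjusted p 3.66e-06) and by -0.65 with ruxolitinib (limma adjusted p 3.04e-05). PARP12 was below by -1.18 with ruxolitinib (limma adjusted p 2.47e-05) and by -0.55 with palbociclib (limma adjusted p 0.0121), where the call ended without library A119 (adjusted p 0.0670) or A126 (0.0589) and with equal upper quartiles (-0.34, adjusted p 0.101). PARP10 was called with neither: its difference was 0.18 (95% interval -0.16 to 0.52) with palbociclib and -0.28 (-0.62 to 0.06) with ruxolitinib, and the latter turned to 0.05 at the same upper quartile. Without library A119, the lowest palbociclib library for PARP10, the palbociclib difference was 0.42 and was called (adjusted p 0.00373). With equal upper quartiles the palbociclib difference of PARP10 was 0.38 and was also called (adjusted p 0.0445).

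With both inhibitors the damage branch lay on the same side of proliferating cells as with DMSO. PARP1 was 4.06-fold below proliferating cells with palbociclib and 3.56-fold below with ruxolitinib, PARP2 was 2.78-fold and 2.26-fold below, and PARP3 was 1.83-fold and 1.72-fold above. PARP8 was lower with palbociclib (log2 difference -0.64, limma adjusted p 4.91e-05) and with ruxolitinib (-0.34, limma adjusted p 0.00916), the latter not called at the same total (-0.13, adjusted p 0.268). PARP4 was not called with palbociclib (-0.20) or with ruxolitinib (0.10), and both values moved with the setting. With palbociclib PARP4 was at 0.01 with equal upper quartiles, and it was called lower without library A126 (-0.36, adjusted p 0.00111) or A119 (-0.30, 0.0231). With ruxolitinib PARP4 was called higher at the same total (0.30, adjusted p 0.0186) and with equal upper quartiles (0.43, 0.00181), and it was at -0.06 without A126.

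**Figure D4:**
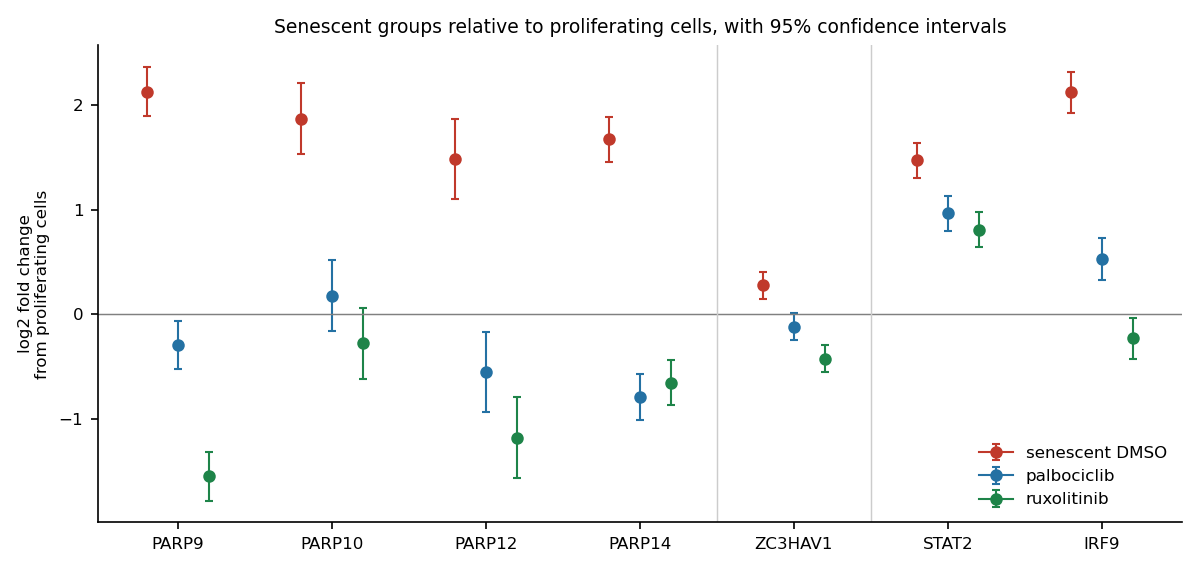
Log2 fold changes from proliferating cells (y axis) of the 4 interferon-branch PARP genes, of the family member ZC3HAV1 and of STAT2 and IRF9 in irradiated cells with DMSO, palbociclib or ruxolitinib, with 95% confidence intervals. With palbociclib the points of STAT2 and IRF9 lie above 0 (0.97 and 0.53), and those of PARP9, PARP12 and PARP14 lie below it (-0.29, -0.55 and -0.79), of which PARP9 and PARP12 were not called with equal upper quartiles. PARP10 lies above 0 with palbociclib (0.18), where it was not called. STAT2 and IRF9 belong to a list of 14 tested pathway genes. Of these, 6 were higher and 6 lower with palbociclib than in proliferating cells, where 35.2% and 38.6% of all tested genes were.

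Levels of different genes were compared per kilobase of transcript. In proliferating cells PARP1 led with 1180 ± 41.4 normalized counts per kilobase (SD, n = 3), followed by PARP4 with 512 ± 98.1 and PARP2 with 377 ± 28.7. The interferon-branch genes lay between 30.5 (PARP10) and 102 (PARP9), and PARP3, PARP14 and PARP12 (81.4 ± 5.58, 80.5 ± 2.14 and 74.9 ± 14.5) did not differ beyond their spread. With DMSO the order was PARP4 (605 ± 13.0), PARP9 (445 ± 5.12), PARP1 (319 ± 8.50), PARP14 (257 ± 20.2), PARP12 (208 ± 11.8), PARP2 (169 ± 11.6), PARP3 (156 ± 13.5), PARP10 (112 ± 4.61) and PARP8 (34.0 ± 2.00). PARP9 stood above PARP1 in DMSO cells, and among neighbours in this order PARP2 and PARP3 did not differ beyond their spread. The same held under palbociclib for PARP12, PARP14 and PARP10 (51.8 ± 13.8, 46.97 ± 8.47 and 35.5 ± 9.47). With either inhibitor PARP4, PARP1, PARP2 and PARP3 were the 4 highest. Under ruxolitinib PARP9, PARP12 and PARP8 (34.5 ± 3.31, 32.8 ± 4.75 and 31.5 ± 1.86) did not differ beyond their spread.

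Other members of the family were read from a list of 8 genes, of which 7 were tested and PARP15 was not analysed here. After irradiation 2 were higher, where 33.0% of all tested genes were, and 2 lower, where 39.3% were. Their median log2 fold change was 0.07, beside -0.05 over all tested genes. TIPARP, a target of the aryl hydrocarbon receptor, rose after irradiation, from 1061 ± 134 to 1470 ± 31.8 (log2 fold change 0.48, limma adjusted p 0.000261). ZC3HAV1, the antiviral zinc-finger protein also called ZAP, rose from 1516 ± 108 to 1838 ± 50.4 (0.28, limma adjusted p 0.000646). PARP11 (-0.69) and PARP16 (-0.43), an endoplasmic reticulum member, fell, PARP16 without a call at the same total (-0.20, adjusted p 0.207), and TNKS, TNKS2 and PARP6 were not called. The balance moved with the scaling, to 5 higher and 1 lower at the same total.

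Palbociclib lowered 3 of these 7 and raised none, where 22.3% of all tested genes were lower and 26.0% higher. At the same total 5 were lower with palbociclib. Ruxolitinib lowered 2 and raised none, where 3.42% of all tested genes were lower and 1.10% higher. With equal upper quartiles 1 was lower with ruxolitinib. ZC3HAV1 fell to 1396 ± 75.0 with palbociclib (log2 fold change -0.40, limma adjusted p 7.66e-05) and to 1129 ± 22.2 with ruxolitinib (-0.70, limma adjusted p 1.19e-06), which was below its proliferating level (-0.42, limma adjusted p 1.26e-05), though not with equal upper quartiles (-0.09, adjusted p 0.191). TIPARP fell by 0.51 on the log2 scale with palbociclib (limma adjusted p 0.000352) and by 0.34 with ruxolitinib (limma adjusted p 0.0491, and 0.0756 with equal upper quartiles), and TNKS fell by 0.28 with palbociclib (limma adjusted p 0.0247).

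A further list held genes that work with ADP-ribose chains. Of its 17 genes, 13 were tested, and MACROD2, OARD1, APLF and DTX3L were not analysed here. After irradiation 9 were lower, where 39.3% of all tested genes were, and 1 was higher, where 33.0% were. Their median log2 fold change was -0.45 beside -0.05 over all tested genes. At the same total, and with equal upper quartiles, 6 were lower and 2 higher, and at the same total POLB and CHFR were no longer called and PARG, which removes the chains, turned from -0.20 to 0.03. HPF1, the cofactor that directs PARP1 and PARP2 to serine residues, had 544.7, 567.8 and 510.4 normalized counts in proliferating and 204.9, 227.3 and 182.7 in DMSO libraries (log2 fold change -1.40, limma adjusted p 2.43e-09). LIG3 and XRCC1, the ligase and scaffold of single-strand break repair, changed by -1.15 and -0.92, TDP1, which removes trapped topoisomerase I, by -1.53, and CHD1L, a chromatin remodeller that binds ADP-ribose chains, by -0.79. RNF146, a ubiquitin ligase that recognizes these chains, was the gene that rose (0.18, limma adjusted p 0.0130).

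With ruxolitinib none of these 13 was called by limma, where 1.10% of all tested genes were higher and 3.42% lower. With palbociclib 4 were higher than with DMSO (HPF1 0.39, CHFR 0.36, CHD1L 0.29 and APTX 0.18), where 26.0% of all tested genes were. POLB alone was lower (-0.42), where 22.3% of all tested genes were. None of these 4 rises was called at the same total, where APTX turned to -0.05. At the same total 4 of the 13 were lower and 0 higher, beside 5176 lower and 940 higher of 11262 tested genes. With equal upper quartiles 2 were lower and 3 higher. HPF1 at 268 ± 21.2 normalized counts remained 1.01 log2 units below proliferating cells.

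NAD is the substrate of all PARP enzymes, and a list of genes of its metabolism was read beside them. Most are supply genes, but the list also holds NADK, which converts NAD to NADP, and SARM1 and CD38, which consume NAD. Of 10 on the list, 7 were tested, NADK and SARM1 among them. After irradiation 5 were higher, where 33.0% of all tested genes were, and 0 lower, where 39.3% were. The median log2 fold change was 0.69, and at the same total all 7 were higher. With palbociclib 3 of the 7 were higher than with DMSO, where 26.0% of all tested genes were. They were NMNAT1 (0.47), NADK (0.45) and NADSYN1 (0.28), the last not called at the same total. NAMPT was the 1 gene lower with palbociclib, where 22.3% of all tested genes were. With ruxolitinib NAMPT alone was called, lower, where 3.42% of all tested genes were. QPRT, of the route from tryptophan, averaged 63.5 ± 22.5 normalized counts in proliferating and 398 ± 49.9 in DMSO cells (log2 fold change 2.69, limma adjusted p 5.50e-09) and was not called with either inhibitor. NAMPT, the rate-limiting enzyme of NAD salvage, had 1137, 1070 and 1244 normalized counts in proliferating cells, 1827, 1927 and 1907 with DMSO, 679.5, 624.0 and 654.7 with palbociclib and 1105, 1162 and 1275 with ruxolitinib. The DMSO libraries were the highest, the ruxolitinib libraries overlapped the proliferating ones, and the palbociclib libraries lay below all others. The log2 fold change of NAMPT was 0.72 after irradiation (limma adjusted p 1.29e-07), -1.53 with palbociclib (1.48e-10) and -0.68 with ruxolitinib (7.78e-06).

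The genes of the interferon and Janus kinase pathway were set beside the interferon branch. Of 16, 14 were tested, and IFNB1 and IRF7 were below the filter. After irradiation 7 were higher, where 33.0% of all tested genes were, and 3 lower, where 39.3% were. Of the lower ones JAK1 (-0.23) and SOCS3 (-0.22) turned to 0.0033 and 0.0072 at the same total. The other lower one, SOCS1, averaged 206 ± 32.5 normalized counts in proliferating and 49.0 ± 9.13 in DMSO libraries (log2 fold change -2.06). It remained lower at the same total. With either inhibitor 6 were lower and 1, the receptor gene IFNAR1, was higher than with DMSO. Of all tested genes 22.3% were lower and 26.0% higher with palbociclib, and 3.42% were lower and 1.10% higher with ruxolitinib. At the same total 11 of the 14 were lower with palbociclib, and with equal upper quartiles 8 were.

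STAT2 averaged 1259 normalized counts in proliferating, 3485 in DMSO, 2462 in palbociclib and 2198 in ruxolitinib libraries, and remained above proliferating cells with both inhibitors (0.97 and 0.81). IRF9 averaged 355, 1549, 515 and 302, above proliferating cells with palbociclib (0.53, limma adjusted p 8.74e-05) and below with ruxolitinib (-0.23, limma adjusted p 0.0351), the latter turning to 0.10 with equal upper quartiles. With palbociclib, STAT2 and IRF9 were above their proliferating levels and PARP14 was below its own, a contrast between genes that was not itself tested. IRF1, also on the list, averaged 473 normalized counts in proliferating and 315 in palbociclib libraries. Of the 14 pathway genes, 6 were higher and 6 lower in that comparison, where 35.2% and 38.6% of all tested genes were. With equal upper quartiles 7 of the 14 were higher and 4 lower. PARP10 (0.18) was not called in that comparison. USP18, a feedback inhibitor of the interferon receptor, rose by 2.67 after irradiation and fell by 2.40 with palbociclib, and it fell by 2.82 with ruxolitinib.

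The genes with the most similar profiles were found by Pearson correlation of log2 values over the 12 libraries, among 9241 other genes with a mean of at least 100. The 12 points fall into the 4 groups, so a high value mainly reflects the group means. For PARP9 they were IFIT5 (r = 0.98), IFITM1 and XAF1, for PARP10 EPSTI1 (0.99), HELZ2 and IRF9, for PARP12 IFI35 (0.98), TRIM21 and IFIT5, and for PARP14 DDX60 (0.99), ADAR and IFIH1. For PARP1 they were CCNI (1.00), CDC25B and HMGB3, for PARP2 DOT1L (0.99), CCNF and MXD3, and for PARP3 BCL2L2 (0.99), MPPE1 and CPEB2. For PARP4 they were WDFY3 (0.97), CLASP1 and GPATCH8, and for PARP8 USP33 (0.98), ZNF638 and MAML2.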

How the data were processed

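Per the labels, poly(A) RNA was extracted with TRIzol and sequenced. Per the submitters' processing notes, the tools were Trimmomatic 0.38.1, HISAT2 2.2.1, featureCounts 2.0.3, FastQC 0.74, MultiQC and DESeq2 2.11.40.8, with the build GRCh38. The strand setting, and how reads shared with near-identical copies such as pseudogenes were counted, are not given in the sources used here. The authors deposited normalized counts, a signal that is never negative, for 16383 Entrez genes, ending at gene 140467; genes with higher numbers were not analysed here. All 160380 values above 0 were whole reads times a factor for the library (100%, tolerance 0.01), so the reads themselves were recovered. In library A116 that factor was close to 1, so its column alone says little.

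Genes with a mean of at least 10 (11242) were tested in R 4.3.3 by limma 3.58.1, on log2 of the normalized count plus 1, in a model of 4 group means over 12 libraries, with variances that follow the mean and Benjamini-Hochberg adjustment over all tested genes. Calls were made at an adjusted p below 0.05. Fold changes are on this log2(value + 1) scale, so changes of low genes are understated. On the recovered reads, DESeq2 1.42.0 and edgeR 4.0.16 (quasi-likelihood, TMM) were alternatives. The scripts were tested on simulated data. Other alternatives were pseudocounts of 0.1 and 5, no filter, a mean of at least 50, other scalings, limma without a trend, only the 2 groups compared, an adjusted p under 0.01, a log2 fold change of at least 1, and each library left out. Leaving out A120 and A126 together, and repeating the lists of related genes under other scalings, edgeR and DESeq2, were chosen after seeing the data. Columns carry the group and a library number, and were assigned to groups only.

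The 9 PARP genes, the lists of related genes and the tests were chosen with earlier results of these data known. Named genes are the 9, the list members, the 3 genes most like each, and GRINA, which was named for its overlap with PARP10. The promoter motifs were chosen for the 2 pathways inhibited and are described without a test. Transcript lengths are those of the MANE transcripts. A result that needs a withheld item is not reported here.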

Additional observations from a re-analysis of the deposited data

How the results depend on the processing

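Over the 39 calls of a PARP gene in one of 6 comparisons, 936 alternative values were computed, of which 884 kept direction and call, 52 kept the direction only and none reversed. All calls of the interferon branch against DMSO, and of PARP1, PARP2 and PARP3 after irradiation, were kept in every alternative run, except that PARP3, at 0.93, is under a log2 fold change of 1. The 14 reversals were of uncalled values: PARP8 after irradiation (0.00285 at the same total, 0.0627 at the same upper quartile), PARP3 with palbociclib against DMSO (0.000408 without A118; -0.12 to 0.000408 over all single libraries left out), PARP2 with ruxolitinib against DMSO (0.0190 at the same upper quartile, 0.0301 without A116, 0.0147 without A124; -0.0617 to 0.0301), PARP3 between inhibitors (-0.11 at the same total, -0.0369 at the same upper quartile), PARP14 between inhibitors (0.000699 without A120, with or without A126; -0.26 to 0.000699), PARP4 with palbociclib against proliferating (0.0102 at the same upper quartile), PARP4 with ruxolitinib against proliferating (-0.0629 without A126, with or without A120; -0.0629 to 0.22) and PARP10 with ruxolitinib against proliferating (0.0514 at the same upper quartile). The cause was not tested.

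Counts of called PARP genes that moved by over 1.5 times were these. At a log2 fold change of at least 1, 4 were lower with palbociclib against DMSO. Between inhibitors, 1 was higher with no filter, at the same total, at an adjusted p under 0.01 and at a log2 fold change of at least 1, and 2, 1 and 0 were lower with no filter, under 0.01 and at a log2 fold change of at least 1. Against proliferating cells, 2 were higher with palbociclib at the same upper quartile, 2 were higher with ruxolitinib at the same total and the same upper quartile, and at a log2 fold change of at least 1 none was higher with either and 2 were lower with palbociclib. Leaving out 1 library gave 1 to 3 higher and 1 to 4 lower between inhibitors (fewest without A121 or A122, and without A124) and 1 to 2 higher with palbociclib against proliferating (2 without A119). No paired analysis was possible because the columns carry no replicate numbers. With 3 libraries a group, differences as small as those of PARP4 and PARP8 sit at the threshold.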
